A study of Mus musculus with 6 samples.

Results

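Genes of glycolysis and of the response to low oxygen were followed in mouse RNA-seq libraries of a study on VprBP in osteoclast differentiation. The 41 genes were taken by exact symbol: 23 glycolytic enzymes and transporters, 2 pyruvate dehydrogenase kinases, 4 regulators of the hypoxia-inducible factors (HIFs), and 12 HIF targets outside glycolysis. All 41 have a row among the 18908 rows of the count table and all 41 passed the filter on low counts. The study compared 3 libraries labelled control shRNA, of wild-type genotype, with 3 labelled VprBP shRNA, of VprBP1 knockdown genotype. All 6 carry the label of bone marrow-derived macrophages, and the labels give no age, sex, passage, treatment or time. An shRNA is a hairpin RNA expressed to lower the transcript it matches, here that of VprBP (Dcaf1), the substrate receptor of a cullin ubiquitin ligase. The labels do not name the hairpin sequence, how it was delivered, or whether libraries sharing a label are separate animals or cultures. The p-values therefore reflect the spread among these 6 libraries alone, and that spread may be technical.

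Glycolysis splits glucose into pyruvate, and when oxygen is short or growth is fast much of the pyruvate is turned into lactate and exported. Most steps are served by several isoforms with different tissue use, so a change of isoform can alter a step without altering its total. In the HIF system, prolyl hydroxylases mark the alpha subunits HIF-1α and HIF-2α for destruction while oxygen is present. Without oxygen the alpha subunits persist, pair with ARNT and switch on genes of glucose uptake, glycolysis, blood vessel growth, pH control and collagen modification. Bone marrow macrophages and the osteoclasts made from them use both glycolysis and HIF-1α when activated.

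Total counts were 16839445 to 21838875 per library. At this depth, a count of 0 allows up to 0.144 to 0.186 CPM, a gene's count relative to the scaled total of its library, taken as 3 counts and covering counting error only. The targeted transcript Dcaf1 stood at 42.2, 43.5 and 40.7 CPM under the control label and at 36.0, 34.6 and 36.8 CPM under the VprBP label (log2 difference -0.24, SE 0.071, edgeR adjusted p = 0.00625), and it was not called when libraries were scaled by total count alone (adjusted p = 0.137). Of 12 macrophage markers, 4 have a row, summing to 37.1 to 40.2 CPM in the control-labelled and 16.5 to 18.2 CPM in the VprBP-labelled libraries. Within that sum Cd68 fell from 31.6 to 1.01 CPM, while Mertk rose from 5.35 to 13.3 and Lyz2 from 1.06 to 2.51 CPM, and the other was not called. The defining markers Csf1r, Adgre1, Itgam, Spi1, Tyrobp, Aif1, Fcgr1 and Cx3cr1 have no row. All 8 pigment cell markers have one, summing to 21075 to 21454 and 19654 to 20163 CPM. These sums hold changes in opposite directions, with 5 markers called higher (such as Tyr, 3.79-fold, and Mitf, 3.44-fold) and 3 lower (Slc45a2, 3.81-fold, Pmel, 2.78-fold, and Mlana, 2.68-fold). Endothelial and erythroid markers summed to at most 0.670 CPM in any library. Transcripts of the mitochondrial genome took 8.65% to 9.48% of counts in the control-labelled and 4.89% to 5.56% in the VprBP-labelled libraries. Since Dcaf1 differed so little and defining macrophage markers have no row, the groups are named here only by their labels. The markers and the mitochondrial share moved with the labels, their part in the differences below was not tested, and in bulk RNA fewer cells of a type and less RNA per cell cannot be told apart.

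Most of the 41 genes had more transcript under the VprBP label. Of the 41, 35 rose, 5 fell (Slc2a3, Eno2, Slc16a1, Pfkfb4 and Vegfa) and 1, Kdm3a, was not called, with a call being an adjusted p below 0.05 in edgeR's quasi-likelihood test over all 14641 tested genes. The labels differed across most of the transcriptome, so these counts are read against the background: the test called 75.0% of them, 37.9% as higher and 37.0% as lower. The members called made up 97.6% of those tested, with 85.4% higher and 12.2% lower. A change of at least 1 in either direction was called for 28 of 41 members and for 33.6% of all tested genes. A rise of at least 1 on the log2 scale, that is 2-fold, was seen for 25 of 41 members (61.0%) against 19.4% of all tested genes, and a fall of that size for 3 members against 14.2% of all tested genes. The groups did not overlap for 40 of the 41 members and for 77.2% of all tested genes. The median log2 difference was 1.42 over the members and -0.012 over all tested genes.

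**Figure D1:**
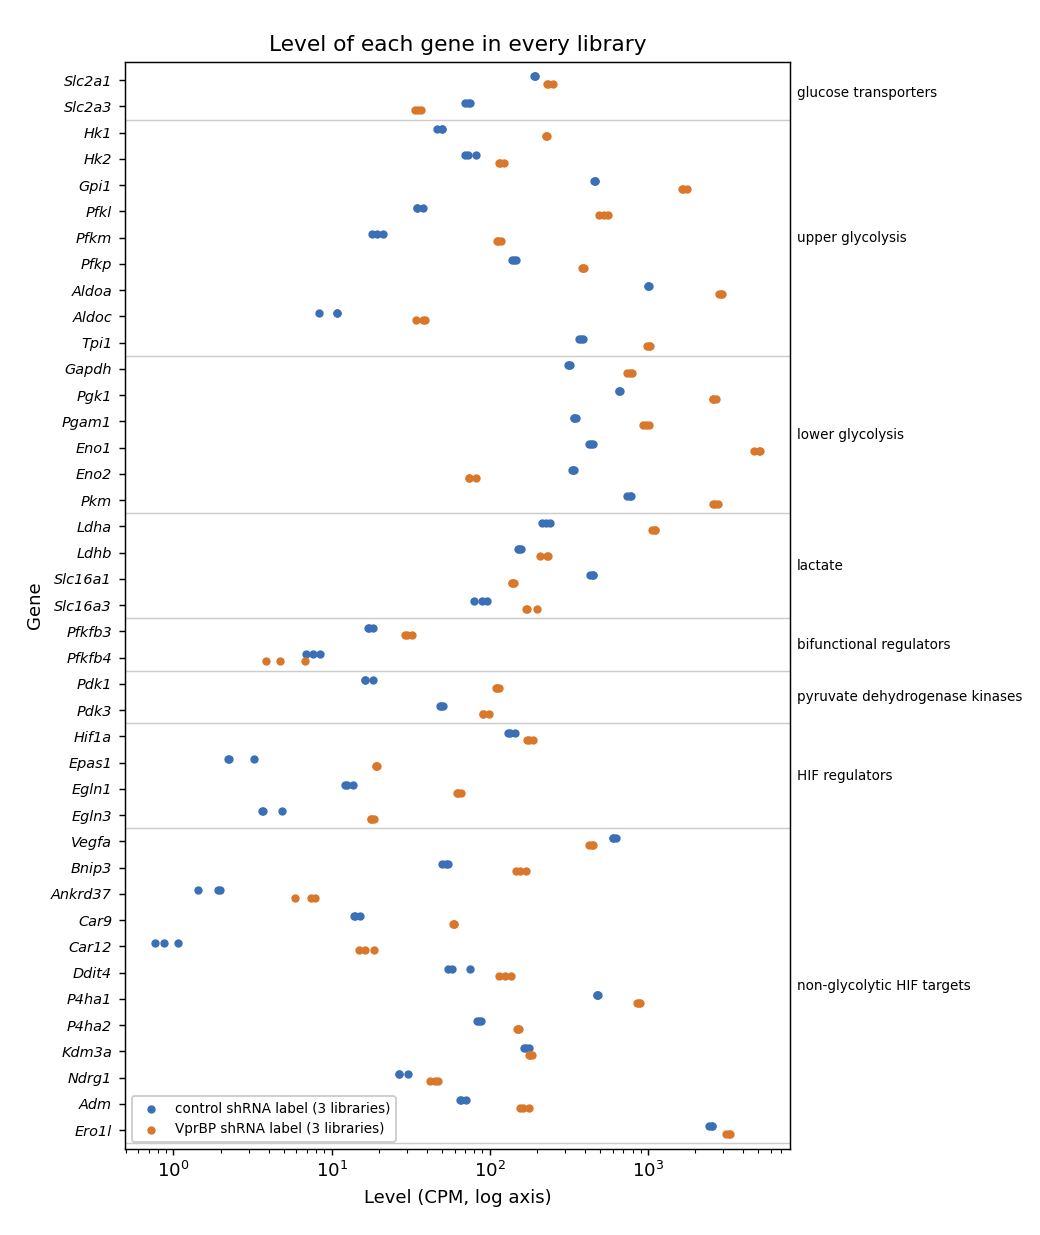
Level of each of the 41 genes in CPM on a log axis, 1 point per library (3 control-labelled in blue, 3 VprBP-labelled in orange), grouped by role. The 3 libraries of a label lie close together, and the labels are separated for 40 genes, with Kdm3a the exception.

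**Figure D2:**
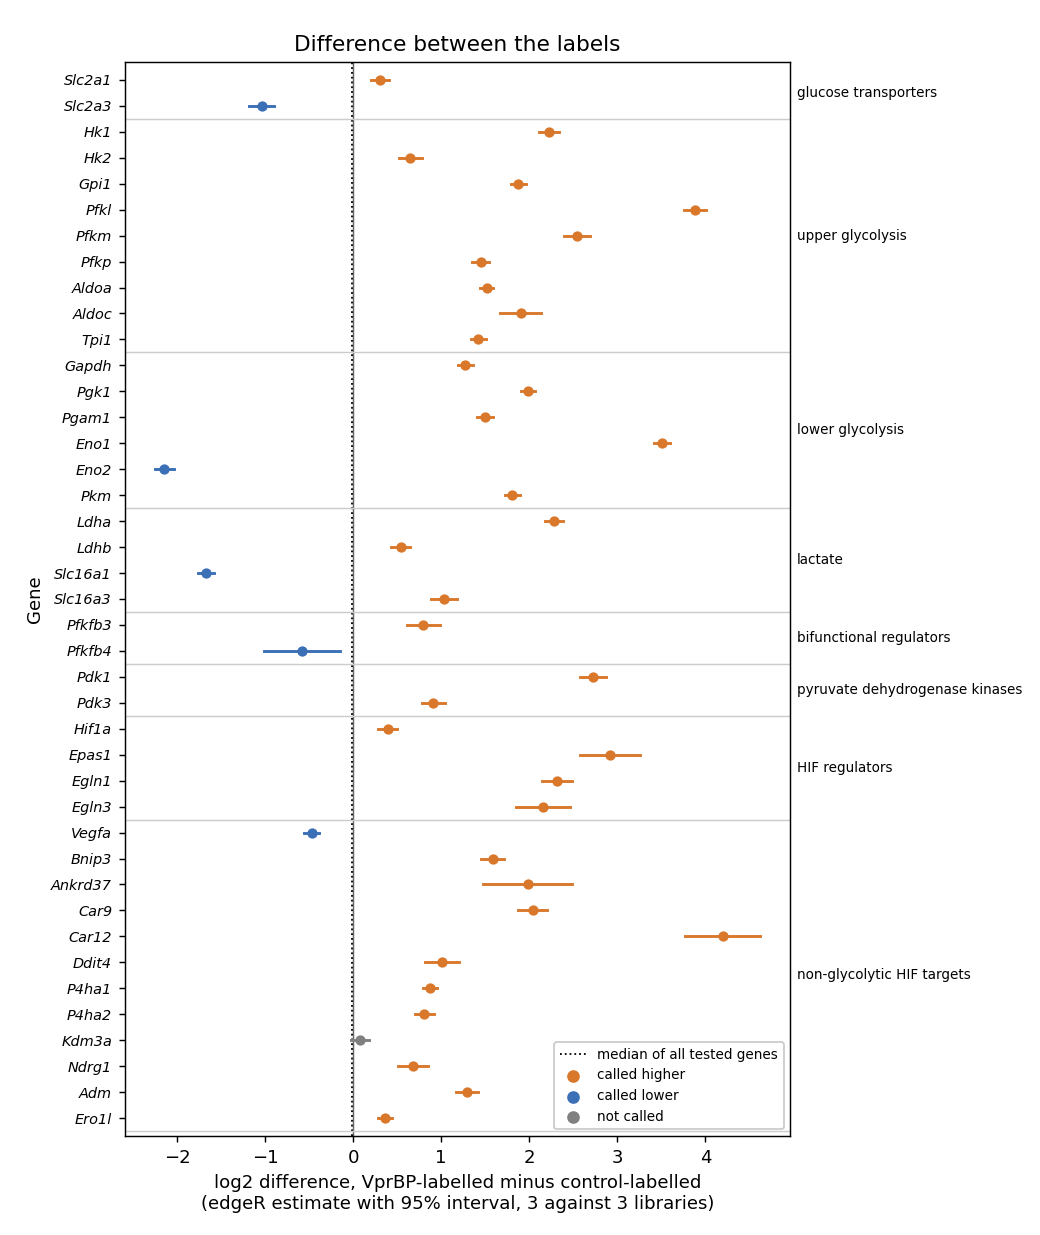
Log2 difference of each gene (VprBP-labelled minus control-labelled, point) with its 95% interval (bar) from edgeR, 3 against 3 libraries, coloured by call, with a dotted line at the median of all tested genes. Values run from -2.14 for Eno2 to 4.20 for Car12, and 5 genes lie below 0 beyond their intervals.

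The 2 glucose transporters moved apart. Slc2a1 (GLUT1; ENSMUSG00000028645.11, chromosome 4, 119108711 to 119137983, plus strand) is the basal glucose transporter of most cells, and Slc2a3 (GLUT3; ENSMUSG00000003153.10, chromosome 6, 122727809 to 122801640, minus strand) is a high-affinity transporter of neurons and leukocytes. Slc2a1 was measured at 191, 194 and 193 CPM in control-labelled libraries 1, 2 and 3 and at 252, 231 and 233 CPM in VprBP-labelled libraries 1, 2 and 3. Slc2a3 stood at 72.4, 69.9 and 75.4 CPM in control-labelled libraries 1, 2 and 3 and at 36.7, 35.4 and 33.8 CPM in VprBP-labelled libraries 1, 2 and 3. Every VprBP-labelled library lay above the control-labelled ones for Slc2a1 and below them for Slc2a3. Slc2a1 rose 1.24-fold (95% interval 1.16 to 1.33), a log2 difference of 0.31 (SE 0.047, edgeR adjusted p = 1.06e-05). Slc2a3 fell 2.06-fold (95% interval 1.87 to 2.26), a log2 difference of -1.04 (SE 0.066, edgeR adjusted p = 8.72e-11). The rise of Slc2a1 was modest for these libraries, since 75.1% of tested genes changed by more.

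All 9 enzymes of the upper, ATP-consuming part of glycolysis rose in the VprBP-labelled libraries, by log2 differences of 0.65 to 3.88. Higher calls made up 37.9% of all tested genes. The largest rise belonged to Pfkl (ENSMUSG00000020277.10, chromosome 10, 77986947 to 78010083, minus strand), the liver-type subunit of phosphofructokinase, the committed step of the pathway. Pfkl was measured at 34.9, 34.9 and 37.8 CPM in control-labelled libraries 1, 2 and 3 and at 562, 494 and 525 CPM in VprBP-labelled libraries 1, 2 and 3. Pfkl rose 14.7-fold (95% interval 13.5 to 16.0), a log2 difference of 3.88 (SE 0.059, edgeR adjusted p = 3.46e-19), and 2.47% of tested genes had a higher log2 difference. The other phosphofructokinase subunits rose less. Pfkm, the muscle type, rose 5.85-fold, from 19.6 ± 1.49 to 114 ± 4.13 CPM (log2 difference 2.55, adjusted p = 6.7e-16). Pfkp, the platelet type, rose 2.73-fold, from 143 ± 4.21 to 389 ± 7.15 CPM (log2 difference 1.45, adjusted p = 2.8e-15). Earlier in the pathway, glucose is trapped by hexokinases. Hk1 was measured at 50.1, 50.2 and 46.1 CPM in control-labelled libraries 1, 2 and 3 and at 229, 228 and 228 CPM in VprBP-labelled libraries 1, 2 and 3. Hk1 (ENSMUSG00000037012.18, chromosome 10, 62268855 to 62379908, minus strand), the constitutive form bound to mitochondria, rose 4.68-fold (95% interval 4.33 to 5.05), a log2 difference of 2.23 (SE 0.052, edgeR adjusted p = 8.81e-17). The inducible form Hk2 rose 1.57-fold, from 75.0 ± 6.16 to 118 ± 3.84 CPM (log2 difference 0.65, adjusted p = 2.37e-08). The fold of the constitutive hexokinase was larger than that of the inducible one, the form usually listed among HIF targets, and that difference was not tested.

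Gpi1 (ENSMUSG00000036427.5, chromosome 7, 34201330 to 34230336, minus strand), which isomerises glucose 6-phosphate, and the aldolase Aldoa (ENSMUSG00000030695.16, chromosome 7, 126795234 to 126800751, minus strand) were among the abundant members. Gpi1 was measured at 456, 464 and 463 CPM in control-labelled libraries 1, 2 and 3 and at 1769, 1637 and 1675 CPM in VprBP-labelled libraries 1, 2 and 3. Aldoa stood at 1001, 1004 and 1018 CPM in control-labelled libraries 1, 2 and 3 and at 2947, 2818 and 2905 CPM in VprBP-labelled libraries 1, 2 and 3. For both genes all VprBP-labelled libraries lay far above all control-labelled ones. Gpi1 rose 3.67-fold (95% interval 3.47 to 3.90), a log2 difference of 1.88 (SE 0.040, edgeR adjusted p = 2.22e-17). Aldoa rose 2.87-fold (95% interval 2.72 to 3.02), a log2 difference of 1.52 (SE 0.035, edgeR adjusted p = 6.79e-17). The brain-type aldolase Aldoc, a minor form here, rose 3.74-fold, from 9.97 ± 1.42 to 37.1 ± 2.34 CPM (log2 difference 1.90, adjusted p = 2.46e-11). Triose phosphate isomerase, Tpi1, which links the products of aldolase, rose 2.68-fold, from 378 ± 9.55 to 1012 ± 25.1 CPM (log2 difference 1.42, adjusted p = 8.42e-16). A second row with the symbol Aldoa held 5 to 24 counts per library and was left out.

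In the lower, ATP-yielding part of the pathway 5 of 6 genes rose and 1 fell, and both extremes were enolases, which make phosphoenolpyruvate. Over all tested genes 37.9% were called higher and 37.0% lower. Eno1 was measured at 422, 439 and 447 CPM in control-labelled libraries 1, 2 and 3 and at 5129.6, 4712 and 5076 CPM in VprBP-labelled libraries 1, 2 and 3. Eno2 stood at 333, 340.3 and 335 CPM in control-labelled libraries 1, 2 and 3 and at 81.4, 73.6 and 73.8 CPM in VprBP-labelled libraries 1, 2 and 3. Eno1 was far higher, and Eno2 far lower, in every VprBP-labelled library than in any control-labelled one. Eno1 (ENSMUSG00000063524.13, chromosome 4, 150236721 to 150248879, plus strand), the ubiquitous enolase, rose 11.4-fold (95% interval 10.7 to 12.1), a log2 difference of 3.51 (SE 0.043, edgeR adjusted p = 2.99e-20). Eno2 (ENSMUSG00000004267.16, chromosome 6, 124760053 to 124769673, minus strand), the neuron-specific enolase, fell 4.41-fold (95% interval 4.10 to 4.75), a log2 difference of -2.14 (SE 0.051, edgeR adjusted p = 9.2e-17). Of tested genes, 3.11% had a higher log2 difference than Eno1 and 3.10% a lower one than Eno2. Eno1 has near-identical copies, chiefly Eno1b, which is 99.5% identical over 1736 bases. The copies held counts equal to 19.0% of those of Eno1 in the control-labelled and 21.6% in the VprBP-labelled libraries, so its level is uncertain. With Eno1b counts added the log2 difference was 3.54.

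The 250 bases before the RefSeq start of both enolase genes (GRCm38.p6) are shown because the paired isoforms moved in opposite directions. The Eno1 stretch is chr4:150236458-150236707 on the plus strand and the Eno2 stretch chr6:124769674-124769923 on the minus strand. Each is written 5′ to 3′ on the gene's strand, and capitals mark the core of the hypoxia response element to which HIF binds, ACGTG or GCGTG on either strand.
Eno1: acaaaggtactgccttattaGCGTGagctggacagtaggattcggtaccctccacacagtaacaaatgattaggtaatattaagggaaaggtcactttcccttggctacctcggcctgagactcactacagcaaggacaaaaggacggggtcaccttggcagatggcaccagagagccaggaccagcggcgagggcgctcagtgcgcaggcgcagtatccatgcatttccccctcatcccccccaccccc
Eno2: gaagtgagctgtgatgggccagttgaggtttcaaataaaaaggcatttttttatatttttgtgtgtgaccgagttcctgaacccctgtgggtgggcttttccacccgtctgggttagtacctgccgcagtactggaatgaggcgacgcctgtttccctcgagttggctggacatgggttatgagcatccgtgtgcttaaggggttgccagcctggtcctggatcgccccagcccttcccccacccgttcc
Eno1 holds 1 such core, starting 230 bases before the start, and Eno2 none in this stretch. A match of letters is a description and not a binding site, and its absence here says nothing of HIF elsewhere at the gene.

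The remaining lower-pathway genes are housekeeping enzymes. Pgk1 was measured at 654, 654 and 666 CPM in control-labelled libraries 1, 2 and 3 and at 2678, 2563 and 2585 CPM in VprBP-labelled libraries 1, 2 and 3. Pkm stood at 739.8, 766 and 784 CPM in control-labelled libraries 1, 2 and 3 and at 2789, 2588 and 2653 CPM in VprBP-labelled libraries 1, 2 and 3. Neither gene overlapped between labels. Pgk1 (ENSMUSG00000062070.12, chromosome X, 106187100 to 106203699, plus strand), which makes the first ATP of the pathway, rose 3.96-fold (95% interval 3.76 to 4.18), a log2 difference of 1.99 (SE 0.036, edgeR adjusted p = 2.89e-18). Pkm (ENSMUSG00000032294.17, chromosome 9, 59656368 to 59679375, plus strand), pyruvate kinase of most tissues, rose 3.51-fold (95% interval 3.31 to 3.72), a log2 difference of 1.81 (SE 0.040, edgeR adjusted p = 3.35e-17), and the table does not separate its splice forms. Gapdh, often used as a reference gene, rose 2.42-fold, from 318 ± 6.03 to 769 ± 31.6 CPM (log2 difference 1.28, adjusted p = 8.1e-15). Phosphoglycerate mutase, Pgam1, rose 2.82-fold, from 345 ± 7.497 to 974 ± 45.3 CPM (log2 difference 1.497, adjusted p = 1.17e-15). Pgk1 is shown next because its promoter is a classical HIF-responsive one, at chrX:106186850-106187099 on the plus strand.
Pgk1: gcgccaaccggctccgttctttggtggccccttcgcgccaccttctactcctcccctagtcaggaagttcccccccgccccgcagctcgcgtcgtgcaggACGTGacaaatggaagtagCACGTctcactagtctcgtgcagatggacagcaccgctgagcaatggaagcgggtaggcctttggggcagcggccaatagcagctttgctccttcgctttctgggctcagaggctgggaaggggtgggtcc
It holds 2 cores, starting 150 and 131 bases before the start. Pgk1 has copies as well (2, holding 11.4% and 12.7% of its counts under the control and the VprBP label).

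At the lactate end, the enzymes rose and the transporters moved apart. Ldha was measured at 213, 226 and 240.0 CPM in control-labelled libraries 1, 2 and 3 and at 1112, 1068 and 1117 CPM in VprBP-labelled libraries 1, 2 and 3. Ldhb stood at 159, 153 and 152 CPM in control-labelled libraries 1, 2 and 3 and at 234, 209 and 231 CPM in VprBP-labelled libraries 1, 2 and 3. Ldha (ENSMUSG00000063229.15, chromosome 7, 46841475 to 46855627, plus strand), the subunit that favours making lactate, rose 4.86-fold (95% interval 4.54 to 5.21), a log2 difference of 2.28 (SE 0.047, edgeR adjusted p = 1.31e-17). Ldhb (ENSMUSG00000030246.11, chromosome 6, 142490249 to 142507957, minus strand), the subunit that favours using lactate, rose 1.46-fold (95% interval 1.35 to 1.57), a log2 difference of 0.54 (SE 0.051, edgeR adjusted p = 2.44e-08). Neither gene overlapped between labels, and the interval of Ldha lay above that of Ldhb. Slc16a1 was measured at 451, 451 and 433 CPM in control-labelled libraries 1, 2 and 3 and at 139, 138 and 142 CPM in VprBP-labelled libraries 1, 2 and 3. Slc16a3 stood at 88.9, 79.4 and 95.7 CPM in control-labelled libraries 1, 2 and 3 and at 199, 169.8 and 173 CPM in VprBP-labelled libraries 1, 2 and 3. Here the labels were separated in opposite directions. Slc16a1 (MCT1; ENSMUSG00000032902.1, chromosome 3, 104638668 to 104658462, plus strand), which carries lactate into or out of cells, fell 3.18-fold (95% interval 2.99 to 3.39), a log2 difference of -1.67 (SE 0.043, edgeR adjusted p = 2.89e-16). Slc16a3 (MCT4; ENSMUSG00000025161.16, chromosome 11, 120948480 to 120960868, plus strand), the exporter of highly glycolytic cells, rose 2.05-fold (95% interval 1.85 to 2.27), a log2 difference of 1.04 (SE 0.069, edgeR adjusted p = 2.04e-10). Bsg, the chaperone that brings both transporters to the membrane, rose 1.75-fold, from 1939 ± 20.7 to 3394 ± 58.6 CPM (log2 difference 0.81, adjusted p = 1.83e-13).

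The stretches before the 2 transporter genes, at chr3:104638414-104638663 on the plus strand and chr11:120948817-120949066 on the plus strand, are shown as a second pair that moved in opposite directions, with the same marking. The RefSeq start of Slc16a3 lies 587 bases inside the GENCODE gene.
Slc16a1: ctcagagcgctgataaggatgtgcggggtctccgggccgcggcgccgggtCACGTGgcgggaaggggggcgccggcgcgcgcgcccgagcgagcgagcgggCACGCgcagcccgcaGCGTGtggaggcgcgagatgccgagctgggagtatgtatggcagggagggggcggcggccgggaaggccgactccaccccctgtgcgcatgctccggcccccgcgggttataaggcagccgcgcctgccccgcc
Slc16a3: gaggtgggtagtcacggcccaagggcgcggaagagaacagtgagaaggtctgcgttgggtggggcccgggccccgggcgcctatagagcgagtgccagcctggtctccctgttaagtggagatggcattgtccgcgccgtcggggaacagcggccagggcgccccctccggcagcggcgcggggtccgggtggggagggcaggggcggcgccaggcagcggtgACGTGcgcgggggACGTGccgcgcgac
Slc16a1, which fell, holds core matches starting at 4 positions, 2 of them the strands of a palindromic CACGTG, also the E-box motif, starting 200 and 199 bases before the start. Slc16a3, which rose, holds 2, starting 27 and 14 bases before the start. Both stretches hold the core, which describes letters only, and any link between the core and direction was not tested.

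Enzymes that set the pace of glycolysis and the fate of pyruvate also changed. Pfkfb3 was measured at 17.2, 18.2 and 17.1 CPM in control-labelled libraries 1, 2 and 3 and at 29.8, 32.3 and 29.2 CPM in VprBP-labelled libraries 1, 2 and 3. Pfkfb4 stood at 7.61, 6.94 and 8.48 CPM in control-labelled libraries 1, 2 and 3 and at 4.74, 6.80 and 3.86 CPM in VprBP-labelled libraries 1, 2 and 3. Pfkfb3 (ENSMUSG00000026773.19, chromosome 2, 11471433 to 11554077, minus strand), which makes the activator of phosphofructokinase, rose 1.74-fold (95% interval 1.53 to 1.99), a log2 difference of 0.80 (SE 0.090, edgeR adjusted p = 2.61e-07). Pfkfb4 (ENSMUSG00000025648.18, chromosome 9, 108991778 to 109032228, plus strand), a related bifunctional enzyme, fell 1.495-fold (95% interval 1.11 to 2.02), a log2 difference of -0.58 (SE 0.21, edgeR adjusted p = 0.017). The groups came close for Pfkfb4, and its call was lost with scaling by total count (adjusted p = 0.0508), without control-labelled library 3 (0.0538), and without VprBP-labelled library 1 (0.0589) or 3 (0.0941). Pdk1 was measured at 16.2, 18.3 and 16.3 CPM in control-labelled libraries 1, 2 and 3 and at 111, 114 and 109.8 CPM in VprBP-labelled libraries 1, 2 and 3. Pdk3 stood at 50.6, 48.8 and 49.2 CPM in control-labelled libraries 1, 2 and 3 and at 90.4, 98.7 and 90.8 CPM in VprBP-labelled libraries 1, 2 and 3. The pyruvate dehydrogenase kinases, which inhibit pyruvate dehydrogenase, were higher in all VprBP-labelled libraries. Pdk1 (ENSMUSG00000006494.11, chromosome 2, 71873224 to 71903858, plus strand), a HIF-1 target, rose 6.60-fold (95% interval 5.97 to 7.30), a log2 difference of 2.72 (SE 0.069, edgeR adjusted p = 2.2e-16). Pdk3 (ENSMUSG00000035232.8, chromosome X, 93764607 to 93832201, minus strand) rose 1.88-fold (95% interval 1.72 to 2.05), a log2 difference of 0.91 (SE 0.060, edgeR adjusted p = 1.59e-10).

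Isoform make-up shifted at most steps. Shares were taken from CPM per kilobase of exon, since levels of different genes compare only per length, and each went through an exact permutation test, two-sided, whose smallest possible p with 3 and 3 libraries is 0.1. None of the 12 shares overlapped between labels, which by itself gives that value, so the test adds nothing to it. Levels did not overlap for 77.2% of all tested genes. The phosphofructokinase shares sum to a fixed total and are not separate results. Eno1 went from 53.2% ± 0.648 to 98.3% ± 0.0781 of Eno1 and Eno2 (SD, n = 3 each). This share leaves out the near-identical copy Eno1b and Eno3 (13.1 to 21.1 CPM, called higher), and was not recomputed with them. Hk1 went from 31.3% ± 1.30 to 57.5% ± 0.858 of Hk1 and Hk2. Ldha went from 41.0% ± 2.01 to 69.9% ± 0.784 of Ldha and Ldhb, and Slc2a1 from 84.6% ± 0.536 to 93.3% ± 0.196 of Slc2a1 and Slc2a3. Other transporters of the family are not in the Slc2a1 share, such as Slc2a6 (40.3 to 26.7 CPM, called lower) and Slc2a8 (41.9 to 48.2 CPM, called higher). The shares of Eno1, Hk1, Ldha and Slc2a1 in those 4 pairs were therefore larger under the VprBP label. Slc16a1 went the other way, from 85.9% ± 1.39 to 48.2% ± 2.20 of Slc16a1 and Slc16a3. Within phosphofructokinase Pfkl went from 24.6% ± 1.35 to 55.5% ± 0.957 and Pfkp from 48.7% ± 1.41 to 20.4% ± 0.733. The share of Pfkm, from 26.8% ± 1.34 to 24.0% ± 0.322, changed sign when levels were not divided by length (1.20 percentage points in place of -2.73). Pfkfb3 went from 59.5% ± 3.19 to 79.5% ± 3.86 of Pfkfb3 and Pfkfb4, and Pdk1 from 10.1% ± 0.772 to 28.3% ± 0.656 of Pdk1 and Pdk3. Shares cover only isoforms among the 41 genes. They leave out Pfkfb2 (32.0 to 19.6 CPM, called lower), Pdk2 (6.24 to 10.1 CPM, called higher) and Pdk4 (1.10 to 3.84 CPM, called higher). Aldoa made up nearly all of aldolase under both labels, at 99.1% ± 0.1197 to 98.9% ± 0.0836.

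**Figure D3:**
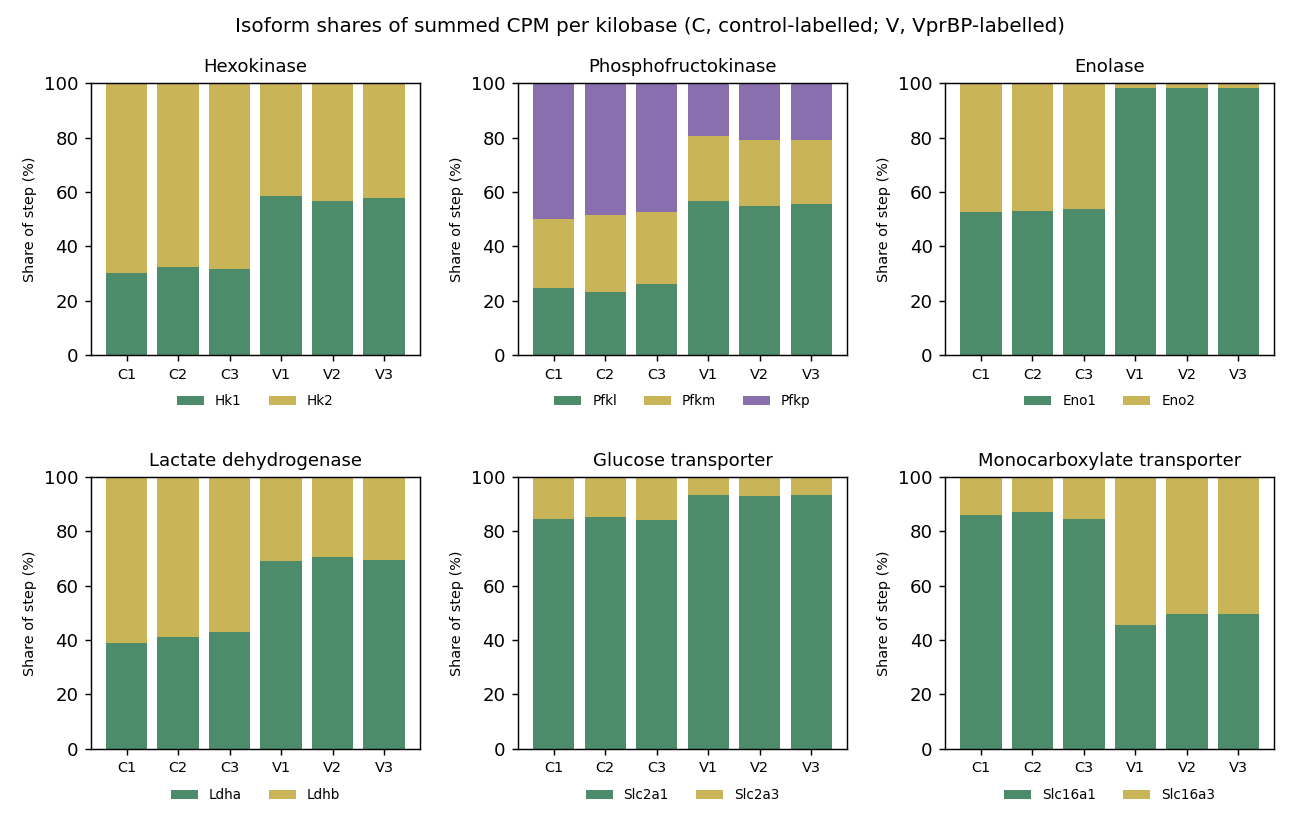
Stacked bars of isoform shares (% of the summed CPM per kilobase of a step, axis from 0 to 100) in the 3 control-labelled (C1 to C3) and 3 VprBP-labelled (V1 to V3) libraries. The libraries of a label look alike. The largest shifts are Eno1 (from 53.2% to 98.3% of Eno1 and Eno2) and Slc16a1 (from 85.9% to 48.2% of Slc16a1 and Slc16a3). Isoforms outside the 41 genes and gene copies are not in the shares.

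Step totals, summed over the same isoforms, rose for the enzymes and not for all transporters. Phosphofructokinase went from 21.9 ± 0.568 to 142 ± 6.60 CPM per kilobase, 6.50 times the control-labelled mean. Enolase went from 153 ± 2.78 to 941 ± 42.9 CPM per kilobase, 6.16 times, so the fall of Eno2 was outweighed by the rise of Eno1. Aldolase, lactate dehydrogenase and hexokinase stood at 2.88, 2.85 and 2.55 times their control-labelled means. Glucose transporters went from 65.0 ± 0.552 to 72.9 ± 3.46 CPM per kilobase, 1.12 times. Monocarboxylate transporters went from 117 ± 1.40 to 65.5 ± 2.93 CPM per kilobase, which is 0.560 times. Of the steps with several isoforms among these members, it was the only total lower in the VprBP-labelled libraries. Isoforms outside the 41 genes are left out of these totals, as are copies such as Eno1b. Of those left out, Slc16a7 rose from 5.71 to 27.0 CPM and Pfkfb2 fell from 32.0 to 19.6 CPM. No total was recomputed with them. In the order of levels per kilobase over the 41 genes, Eno1 moved from rank 11 to 3 and Eno2 from 13 to 31. Pgk1 ranked 1 in the VprBP-labelled libraries at 1163 ± 27.2 CPM per kilobase, and with the longest coding transcript as length Eno1 (2453) and Aldoa (1866) stood above it (1429).

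All 4 HIF regulators rose in the VprBP-labelled libraries, beside 37.9% of all tested genes, with the smallest change in Hif1a. Hif1a was measured at 144, 134 and 131 CPM in control-labelled libraries 1, 2 and 3 and at 173, 187 and 178 CPM in VprBP-labelled libraries 1, 2 and 3. Epas1 stood at 2.25, 3.22 and 2.21 CPM in control-labelled libraries 1, 2 and 3 and at 19.2, 19.4 and 19.1 CPM in VprBP-labelled libraries 1, 2 and 3. Both alpha subunits were higher in every VprBP-labelled library. Hif1a (ENSMUSG00000021109.13, chromosome 12, 73901375 to 73947530, plus strand), the subunit of HIF-1, rose 1.31-fold (95% interval 1.22 to 1.42), a log2 difference of 0.39 (SE 0.052, edgeR adjusted p = 1.98e-06). Epas1 (ENSMUSG00000024140.10, chromosome 17, 86753700 to 86833410, plus strand), the subunit of HIF-2, rose 7.55-fold (95% interval 5.97 to 9.56), a log2 difference of 2.92 (SE 0.16, edgeR adjusted p = 1.23e-11). Hif1a stayed the main alpha subunit, going from 98.1% ± 0.461 to 89.8% ± 0.321 of the pair per kilobase. HIF-1α is controlled mostly as a protein, which these counts do not measure. Egln1 was measured at 12.2, 12.5 and 13.6 CPM in control-labelled libraries 1, 2 and 3 and at 65.6, 62.7 and 62.3 CPM in VprBP-labelled libraries 1, 2 and 3. Egln3 stood at 3.64, 4.83 and 3.70 CPM in control-labelled libraries 1, 2 and 3 and at 18.5, 17.7 and 17.9 CPM in VprBP-labelled libraries 1, 2 and 3. Neither prolyl hydroxylase overlapped between labels. Egln1 (PHD2; ENSMUSG00000031987.6, chromosome 8, 124908587 to 124949324, minus strand), the main oxygen sensor, rose 4.99-fold (95% interval 4.44 to 5.60), a log2 difference of 2.32 (SE 0.080, edgeR adjusted p = 1.39e-14). Egln3 (PHD3; ENSMUSG00000035105.5, chromosome 12, 54178981 to 54203860, minus strand), itself a HIF target, rose 4.46-fold (95% interval 3.60 to 5.53), a log2 difference of 2.16 (SE 0.15, edgeR adjusted p = 2.55e-10).

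Among the HIF targets outside glycolysis 10 of 12 rose, 1 (Vegfa) fell and 1 (Kdm3a) was not called. The shares over all tested genes were 37.9% higher and 37.0% lower. Genes of pH control and mitophagy showed clear rises. Car9 was measured at 15.2, 14.1 and 13.8 CPM in control-labelled libraries 1, 2 and 3 and at 59.6, 58.3 and 59.7 CPM in VprBP-labelled libraries 1, 2 and 3. Bnip3 stood at 52.9, 54.9 and 49.7 CPM in control-labelled libraries 1, 2 and 3 and at 147, 169 and 156 CPM in VprBP-labelled libraries 1, 2 and 3. For both genes the VprBP-labelled libraries lay above all control-labelled ones. Car9 (ENSMUSG00000028463.14, chromosome 4, 43506966 to 43513729, plus strand), the membrane carbonic anhydrase used as a marker of hypoxia, rose 4.12-fold (95% interval 3.67 to 4.61), a log2 difference of 2.04 (SE 0.078, edgeR adjusted p = 6.12e-14). Bnip3 (ENSMUSG00000078566.8, chromosome 7, 138890836 to 138909519, minus strand), a receptor for mitophagy, rose 3.0-fold (95% interval 2.74 to 3.29), a log2 difference of 1.58 (SE 0.062, edgeR adjusted p = 9.24e-14). Car12, another membrane carbonic anhydrase and the largest rise of all 41 genes, rose 18.4-fold, from 0.902 ± 0.157 to 16.5 ± 1.84 CPM (log2 difference 4.20, adjusted p = 1.62e-12), with 14 to 18 counts in a control-labelled library. Ankrd37, a HIF-1 target, rose 3.95-fold, from 1.77 ± 0.296 to 7.05 ± 1.08 CPM (log2 difference 1.98, adjusted p = 5.86e-07), but it overlaps Ufsp2 and Lrp2bp on the other strand, which had 727% and 20.8% of its counts, and the strand setting is not known. Bnip3 is shown because it and Ldha hold the most cores in the 250 bases before a start, at chr7:138909507-138909756 on the minus strand.
Bnip3: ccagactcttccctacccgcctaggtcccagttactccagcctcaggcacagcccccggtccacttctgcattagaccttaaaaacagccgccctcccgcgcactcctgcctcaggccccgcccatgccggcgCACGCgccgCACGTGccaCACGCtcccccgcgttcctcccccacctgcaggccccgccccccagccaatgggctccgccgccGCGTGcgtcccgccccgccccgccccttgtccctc
Cores start at 5 positions, 117, 108, 107, 99 and 35 bases before the start, the second and the third being the strands of 1 CACGTG.

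Secreted factors and collagen enzymes differed in direction and size. Adm was measured at 65.9, 70.7 and 65.1 CPM in control-labelled libraries 1, 2 and 3 and at 155, 163 and 177 CPM in VprBP-labelled libraries 1, 2 and 3. Vegfa stood at 600.4, 601 and 632 CPM in control-labelled libraries 1, 2 and 3 and at 446, 452 and 426 CPM in VprBP-labelled libraries 1, 2 and 3. Adm lay higher and Vegfa lower in every VprBP-labelled library. Adm (ENSMUSG00000030790.15, chromosome 7, 110627661 to 110629820, plus strand), the vasodilator peptide adrenomedullin, rose 2.46-fold (95% interval 2.25 to 2.68), a log2 difference of 1.30 (SE 0.059, edgeR adjusted p = 7.77e-13). Vegfa (ENSMUSG00000023951.17, chromosome 17, 46016993 to 46032369, minus strand), the main growth factor for blood vessels, fell 1.39-fold (95% interval 1.30 to 1.47), a log2 difference of -0.47 (SE 0.041, edgeR adjusted p = 8.56e-09). P4ha1 was measured at 483, 479 and 477 CPM in control-labelled libraries 1, 2 and 3 and at 856, 876 and 896 CPM in VprBP-labelled libraries 1, 2 and 3. P4ha1 (ENSMUSG00000019916.14, chromosome 10, 59323296 to 59373304, plus strand), a catalytic subunit of collagen prolyl 4-hydroxylase, rose 1.83-fold (95% interval 1.73 to 1.93), a log2 difference of 0.87 (SE 0.038, edgeR adjusted p = 4.05e-13). Its paralog P4ha2 rose 1.75-fold, from 85.9 ± 2.50 to 151 ± 1.59 CPM (log2 difference 0.81, adjusted p = 5.38e-11). Ero1l, the oxidase that drives disulfide formation in the endoplasmic reticulum, rose 1.28-fold, from 2509.5 ± 66.3 to 3223 ± 111 CPM (log2 difference 0.36, adjusted p = 6.16e-08), and it had the highest level of the 12 per kilobase under both labels. Ddit4, an inhibitor of mTORC1, rose 2.01-fold, from 62.4 ± 10.8 to 125 ± 10.1 CPM (log2 difference 1.01, adjusted p = 1.24e-08). Ndrg1, a stress-responsive gene, rose 1.61-fold, from 27.9 ± 2.18 to 44.8 ± 2.51 CPM (log2 difference 0.68, adjusted p = 4.83e-07).

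Kdm3a was measured at 178, 165 and 169 CPM in control-labelled libraries 1, 2 and 3 and at 180.0, 178 and 184 CPM in VprBP-labelled libraries 1, 2 and 3. The groups overlapped for this histone demethylase, a HIF target in many cells. The difference was 0.081 (SE 0.047, 95% interval -0.018 to 0.18, edgeR adjusted p = 0.129) on the log2 scale. With scaling by total count it was 0.20 and called (adjusted p = 0.00108). That scaling moved the median log2 difference of all tested genes from -0.012 to 0.10, so the median of all genes moved upward along with Kdm3a.

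The classes were compared by their counts and medians, with no test of the difference between them. Of all tested genes 37.9% were called higher, 37.0% lower and 19.4% higher by at least 1 on the log2 scale. The median over all tested genes was -0.012. Glycolytic enzymes and transporters had 19 higher and 4 lower of 23 (82.6% and 17.4%), a median log2 difference of 1.45, and 15 rises of at least 1. Non-glycolytic HIF targets had 10 higher and 1 lower of 12 (83.3% and 8.33%), a median of 0.94, and 6 rises of that size. HIF regulators had 4 higher of 4, a median of 2.24, and 3 such rises. The share of higher calls was thus nearly equal in the glycolytic and non-glycolytic classes, with the glycolytic median the larger of them. In summed level, glycolytic members went from 6239 ± 75.8 to 21040.3 ± 625 CPM and non-glycolytic targets from 4084 ± 47.9 to 5447 ± 136 CPM (SD, n = 3 each). These sums are not divided by gene length, and abundant genes weigh most in them. Ero1l alone held 2509.5 and 3223 CPM of the non-glycolytic sums, and Eno1 436 and 4972 CPM of the glycolytic ones.

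Promoters were searched for the core over the whole RefSeq window, 250 bases before to 50 after a start. Of the 41 genes, 37 matched the RefSeq table by symbol, with 53 promoters, since some genes have several starts. Epas1, Ero1l, Ndrg1 and Slc2a3 had no entry. ACGTG on either strand was in 28 of the 53 promoters (52.8%) and in 19.6% of all 32851 RefSeq promoters. GCGTG was in 30 (56.6%) and in 32.4% of all. Some members were listed because they are HIF targets, so these shares describe the list and not these libraries. Either core was in 41 of the 53 promoters (77.4%) and in 43.8% of all RefSeq promoters, where a gene can count several times. Counting 1 promoter per gene, the one nearest the annotated gene start, either core was in 16 of 22 glycolytic members and 8 of 10 non-glycolytic HIF targets. No share over all genes was taken on that count. ACGTG is part of the E-box CACGTG. Vegfa and Car12, at opposite ends of the non-glycolytic class, held neither core in this window.

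Further genes around these pathways came from lists not picked by how they moved, although earlier results of these data were known. Of 11 glycogen genes 9 were tested and all 9 rose, with a median log2 difference of 0.77, whereas 37.9% of all tested genes were called higher. The glycogen phosphorylases Pygb and Pygl rose 3.37-fold, from 20.5 ± 0.774 to 69.1 ± 2.06 CPM (log2 difference 1.75, adjusted p = 1.49e-13) and 9.44-fold, from 3.85 ± 1.22 to 35.7 ± 2.57 CPM (log2 difference 3.24, adjusted p = 2.28e-12). The branching enzyme Gbe1 rose 2.88-fold, from 21.9 ± 0.0777 to 62.9 ± 2.99 CPM (log2 difference 1.53, adjusted p = 1.34e-12), and Ugp2, which makes UDP-glucose, 1.68-fold, from 102 ± 0.809 to 171 ± 6.06 CPM (log2 difference 0.75, adjusted p = 1.42e-10). Enzymes of both the making and the breakdown of glycogen were therefore higher. Of 8 pentose phosphate genes 5 rose, Rpia alone fell and 2 were not called (median 0.27). The share called, 75%, was that of all tested genes (75.0%). In direction it was 62.5% higher and 12.5% lower, beside 37.9% and 37.0% of all tested genes. H6pd, the form in the endoplasmic reticulum, rose 3.22-fold, from 100.5 ± 3.21 to 323 ± 13.3 CPM (log2 difference 1.69, adjusted p = 1.39e-15), Tkt, transketolase, 1.56-fold, from 151 ± 4.78 to 235 ± 5.38 CPM (log2 difference 0.64, adjusted p = 5.62e-10), and Pgls 1.40-fold, from 68.9 ± 1.92 to 96.3 ± 6.93 CPM (log2 difference 0.48, adjusted p = 1.21e-06). Rpia, a ribose 5-phosphate isomerase, fell 2.09-fold, from 21.8 ± 0.667 to 10.4 ± 0.765 CPM (log2 difference -1.06, adjusted p = 8.3e-08). G6pdx, the entry enzyme of this branch, was not called (172 ± 11.04 and 175 ± 6.55 CPM).

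Genes of pyruvate entry into mitochondria had 6 higher, 5 lower and 1 not called of 12 (median 0.16). In percent that is 50% and 41.7%, beside 37.9% and 37.0% of all tested genes. Subunits of the pyruvate dehydrogenase complex moved in opposite directions. Pdhb, the E1 beta subunit, fell 3.21-fold, from 172 ± 7.84 to 53.6 ± 0.109 CPM (log2 difference -1.68, adjusted p = 5.47e-15), and Pdha1, the E1 alpha subunit, rose 1.59-fold, from 61.3 ± 2.43 to 97.3 ± 4.70 CPM (log2 difference 0.66, adjusted p = 1.11e-08). The mitochondrial pyruvate carrier subunits fell, Mpc2 1.96-fold, from 67.6 ± 4.20 to 34.5 ± 1.32 CPM (log2 difference -0.97, adjusted p = 5.56e-10) and Mpc1 1.46-fold, from 47.4 ± 3.31 to 32.6 ± 1.12 CPM (log2 difference -0.54, adjusted p = 3.48e-06). Pdpr, a regulator of the phosphatase that activates the complex, rose 2.70-fold, from 5.49 ± 0.348 to 14.9 ± 1.30 CPM (log2 difference 1.43, adjusted p = 4.81e-08). Of 32 other glycolysis and gluconeogenesis genes 19 were tested, which gave 11 rises, 6 falls and 2 without a call (median 0.22). These are 57.9% higher and 31.6% lower, beside the same 37.9% and 37.0% of all tested genes. Pgm1, which links glycogen to glycolysis, rose 3.78-fold, from 37.6 ± 2.87 to 142 ± 7.43 CPM (log2 difference 1.92, adjusted p = 1.24e-14), the monocarboxylate transporter Slc16a7 4.72-fold, from 5.71 ± 0.720 to 27.0 ± 3.10 CPM (log2 difference 2.24, adjusted p = 3.14e-11) and the galactose mutarotase Galm 2.16-fold, from 18.8 ± 0.933 to 40.6 ± 1.34 CPM (log2 difference 1.11, adjusted p = 8.38e-10). Among those that fell, Adpgk, an ADP-dependent glucokinase, fell 1.54-fold, from 178 ± 9.28 to 116 ± 8.23 CPM (log2 difference -0.62, adjusted p = 2e-08), Tigar, a phosphatase that diverts sugar from glycolysis, 1.61-fold, from 44.1 ± 1.13 to 27.5 ± 1.51 CPM (log2 difference -0.68, adjusted p = 2.06e-07), and Pgm2 1.68-fold, from 38.0 ± 0.893 to 22.6 ± 2.59 CPM (log2 difference -0.75, adjusted p = 5.96e-07). A row was present for 24 of the list.

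The other HIF pathway regulators were called in 62.5% of cases, beside 75.0% of all tested genes. The list of 16 had 3 rises, 7 falls and 6 without a call (median -0.11), that is 18.8% higher and 43.8% lower beside 37.9% and 37.0% of all tested genes. Cited2, a HIF-induced inhibitor that competes for the coactivator p300, rose 8.03-fold, from 25.7 ± 2.44 to 207 ± 9.59 CPM (log2 difference 3.005, adjusted p = 4.53e-17). Hif1an, the asparaginyl hydroxylase that blocks HIF activity, fell 1.35-fold, from 62.5 ± 2.01 to 46.2 ± 1.55 CPM (log2 difference -0.44, adjusted p = 6.68e-06). Ep300, which encodes p300, fell 1.25-fold, from 134 ± 5.93 to 108 ± 4.61 CPM (log2 difference -0.32, adjusted p = 3.08e-05), and Siah1a, a ubiquitin ligase for prolyl hydroxylases, 1.83-fold, from 32.0 ± 1.24 to 17.5 ± 1.89 CPM (log2 difference -0.87, adjusted p = 2.01e-07). Hif3a and Rack1 made up the other rises, at 0.454 ± 0.406 and 1.88 ± 0.259 CPM and 1036 ± 4.35 and 1179.7 ± 20.98 CPM. Hif3a had only 2 to 15 counts in a control-labelled library (SE 0.55 on the log2 scale). Arnt, the partner of the alpha subunits, was not called (73.6 ± 4.25 and 67.9 ± 4.90 CPM). Scaling by total count gave 6 higher and 5 lower in this list, so the order of those counts depended on the scaling. Of 28 further HIF targets 23 were tested, which gave 15 rises, 4 falls and 4 without a call (median 0.60). In percent that is 65.2% higher and 17.4% lower, beside 37.9% and 37.0% of all tested genes. Angptl4, a secreted inhibitor of lipoprotein lipase, rose 103-fold, from 0.762 ± 0.392 to 82.6 ± 2.51 CPM (log2 difference 6.68, adjusted p = 3.35e-17), with 7 to 25 counts in a control-labelled library. Loxl2, a collagen crosslinking enzyme, rose 4.67-fold, from 30.3 ± 1.23 to 142 ± 6.26 CPM (log2 difference 2.22, adjusted p = 6.7e-16). P4hb, the partner of P4ha1 and P4ha2 and a protein disulfide isomerase, fell 2.40-fold, from 4094 ± 44.0 to 1703 ± 7.76 CPM (log2 difference -1.27, adjusted p = 2.89e-16). The repressors Bhlhe40 and Bhlhe41 are related, and Bhlhe41 fell 3.35-fold, from 251 ± 6.70 to 74.9 ± 2.88 CPM (log2 difference -1.74, adjusted p = 1.2e-15), whereas Bhlhe40, named here after its values were seen, rose 3.18-fold, from 30.8 ± 0.553 to 98.0 ± 2.84 CPM (log2 difference 1.67, adjusted p = 3.63e-14). Wsb1, part of a ubiquitin ligase, fell 2.09-fold.

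**Figure D4:**
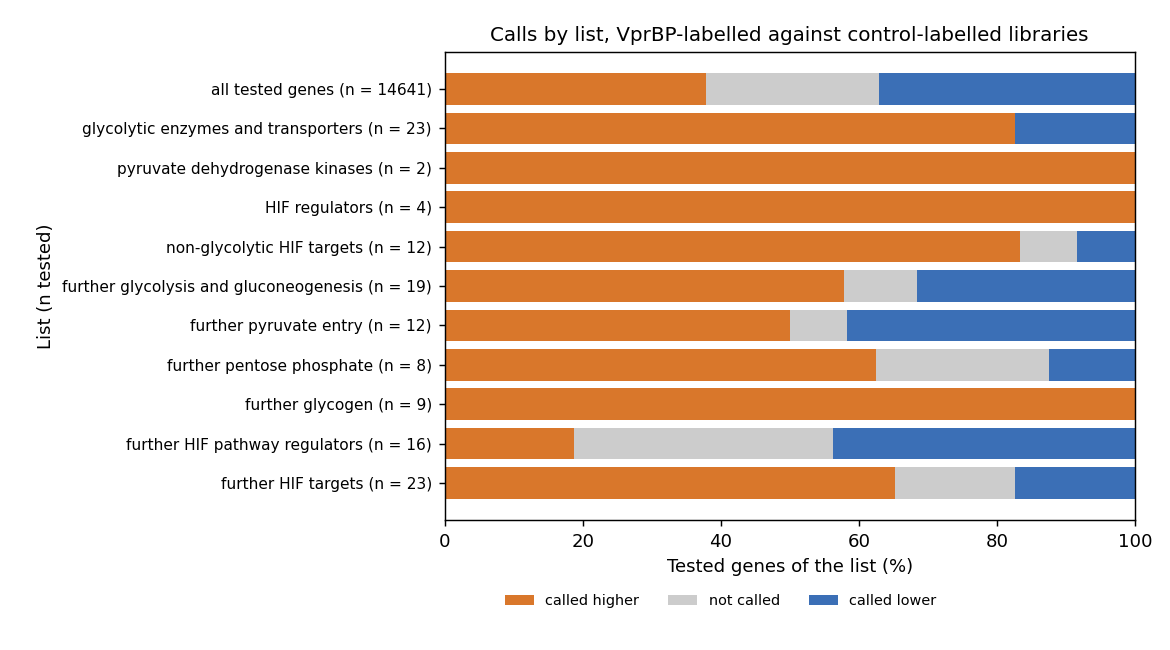
Share of the tested genes of each list called higher (orange), lower (blue) or not called (grey), in %, for VprBP-labelled against control-labelled libraries (3 each), with all 14641 tested genes on top. All 9 glycogen genes and 82.6% of the glycolytic members were called higher, against 37.9% of all tested genes, and 18.8% of the further HIF pathway regulators.

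Shared sequence limits some levels. Near-identical copies (at least 95% identity over at least 200 bases of transcript, outside the gene) were listed for 10 of the 41 genes. Gapdh had 55, with counts equal to 4.09% and 3.31% of its own under the control and the VprBP label. Bnip3 had 3, at 22.3% and 12.6%, and with the copies added its log2 difference was 1.47. Pfkm overlaps Senp1 and Pfkp overlaps Pitrm1 on the opposite strand, with 68.1% and 41.2% of the member's counts, and reads of such pairs cannot be told apart without a strand setting.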

How the data were processed

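Messenger RNA was measured in 6 libraries made with a SMARTer mRNA kit from column-purified RNA, per the labels' protocols. The deposited table holds expected counts for each gene, unscaled. Partek and build mm10 (GRCm38) were used, per the submitters' processing notes. The choice of aligner, counter, strand and annotation is not given in the sources used here. In each library between 62.1% and 64.5% of values were whole within 0.001, and the rest carry fractions, as arise where reads are shared among genes. The Length column, unit other, is the genomic span as deposited, and it was not used for levels. The table held no unassigned column. Of 18908 gene IDs, 18501 matched GENCODE M21 with equal coordinates, the end being the file's stop minus 1.

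Rounded counts went into edgeR 4.0.16 under R 4.3.3 (quasi-likelihood F test, TMM scaling, filterByExpr, group as the only term, Benjamini-Hochberg over 14641 genes). Levels are CPM with TMM factors, and levels per kilobase use the union of GENCODE exons. Folds come from the edgeR log2 difference, and differences are VprBP-labelled minus control-labelled. Alternatives were 3 scalings, no filter, at least 1 CPM in 3 libraries, DESeq2 1.42.0, a replicate block, leaving out each library, other lengths, the class of Pdk1 and Pdk3, and copies added (BLAST 2.17.0, chosen after seeing the data, as was the coding transcript length). The edgeR script was tested on simulated data. Members given in every library were, per role, up to 4 with the smallest p plus any not called or in the minority direction. From the other lists up to 4 with the smallest p and up to 3 in the minority direction were named, along with a few genes (G6pdx, Arnt, Mpc1 and Bhlhe40) chosen after their values were seen. One item is not reported here. The members and lists were chosen with earlier results of these data known. Replicates of a label differed by more than counting noise (chi-square per degree of freedom 3.14 to 5.91), and no 2 columns were identical.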

Additional observations from a re-analysis of the deposited data

How the results depend on the processing

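Of 41 members, 39 kept direction and call under every alternative run, the exceptions being Pfkfb4 and Kdm3a, given above. The counts of calls for the member classes stayed within 1.5 times under every alternative run. Scaling by total count raised the class medians to 1.56 (glycolytic), 2.35 (HIF regulators) and 1.05 (non-glycolytic targets), gave 6 further HIF pathway regulators higher, and ended the call of Dcaf1 (log2 difference -0.12, edgeR adjusted p = 0.137). Upper quartile scaling gave a glycolytic median of 1.42. Leaving out 1 library gave medians of 1.43 to 1.47 (glycolytic) and 0.89 to 0.999 (non-glycolytic targets), and 1 to 2 pentose phosphate genes lower, the higher count being without control-labelled library 3. Isoform shares moved with the length used. Without division by length the differences in percentage points were Pfkl 33.0, Pfkm 1.20, Pfkp -34.2, Eno1 42.0, Ldha 23.6, Slc2a1 14.4, Slc16a1 -39.8, Pfkfb3 16.2, Pdk1 29.0. With the longest coding transcript they were Pfkl 32.5, Pfkm 1.05, Pfkp -33.5, Eno1 34.8, Ldha 26.6, Slc2a1 12.8, Slc16a1 -40.0, Pdk1 20.6, Hif1a -6.83, so Pfkm turned positive under both. No pairing by replicate number was seen. The deviations of same-numbered libraries correlated at -0.0411 to 0.00596, and 0 of 3 control-labelled libraries correlated best with their own number. With 3 libraries per label, these values cannot show that libraries were not handled in pairs. With the replicate block 5395 genes were called higher and 5254 lower, and among members 19 glycolytic genes higher and 4 lower, 10 non-glycolytic targets higher and 4 HIF regulators higher. Low counts limit Car12, Ankrd37, Angptl4 and Hif3a.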
